A study of Mus musculus with 6 samples.

Results

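The protocadherins form the largest family of cadherin adhesion proteins, and 69 of the 43346 genes in the count table were protein-coding protocadherin genes. They were chosen by gene symbol in GENCODE release M21 (GRCm38), as every protein-coding gene whose symbol begins with Pcdh, without use of their values. Of these, 14 belong to the alpha cluster, 22 to the beta cluster and 21 to the gamma cluster, all on chromosome 18, and 12 are non-clustered genes spread over chromosomes 3, 5, 10, 14, 18 and X. Primary cultures were made from the cortex of mouse fetuses (gestational day 15.5), received vehicle (DMSO, spelled DSMO in the labels) or the royal jelly fatty acid 10HDA at 1 mM, and were sequenced. Cultures 1, 3 and 4 each gave 1 library of each treatment, which makes 3 libraries per treatment and 6 in all. The labels of both treatments give the strain as Cyp19-EGFP, mice with a green fluorescent reporter for the aromatase gene, and the genotype as SRY+, that is male, whereas the methods section gives C57BL/6 for these cultures. How long the cells were treated is not given in the sources used here.

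Protocadherins are single-pass membrane proteins with extracellular cadherin repeats, which in many of them bind the same protein on a neighbouring cell. In the alpha and gamma clusters each variable exon has its own promoter and is spliced to constant exons shared by the whole cluster, while each beta gene is a separate single coding exon. A neuron uses only some of these promoters, chosen largely at random, except for the C-type genes at the end of the alpha and gamma clusters, which are expressed more uniformly. This gives single neurons an adhesive identity that serves self-avoidance of their dendrites and the patterning of axons and synapses. The non-clustered genes, most of them called delta protocadherins, are instead expressed in patterns that follow brain regions, layers and cell types. Delta-1 genes (Pcdh1, Pcdh7, Pcdh9 and Pcdh11x) and delta-2 genes (Pcdh8, Pcdh10, Pcdh17, Pcdh18 and Pcdh19) differ in their extracellular repeats and cytoplasmic tails.

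Sequence was shown for 3 non-clustered genes whose 10HDA and vehicle libraries did not overlap, Pcdh8, Pcdh9 and Pcdh10. RefSeq promoter sequences of GRCm38.p6 were at hand for 9 of the 69 genes, Pcdh7, Pcdh8, Pcdh9, Pcdh10, Pcdh15, Pcdh17, Pcdh18, Pcdh19 and Pcdh20, in 10 entries. The 250 bases before each annotated start are given 5′ to 3′ on the strand of the gene, at chr14:79771313-79771562 on the minus strand for Pcdh8, chr14:93890680-93890929 on the minus strand for Pcdh9 and chr3:45378148-45378397 on the plus strand for Pcdh10. Capitals mark every CGCT on either strand (CGCT or AGCG, overlapping matches included), the core of the conserved element found in promoters of the clustered genes.
Pcdh8: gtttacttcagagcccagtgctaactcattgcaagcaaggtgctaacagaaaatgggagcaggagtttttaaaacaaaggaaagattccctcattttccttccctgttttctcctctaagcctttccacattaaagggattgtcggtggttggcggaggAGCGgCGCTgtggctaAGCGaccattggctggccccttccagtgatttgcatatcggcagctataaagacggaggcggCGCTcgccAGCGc
Pcdh9: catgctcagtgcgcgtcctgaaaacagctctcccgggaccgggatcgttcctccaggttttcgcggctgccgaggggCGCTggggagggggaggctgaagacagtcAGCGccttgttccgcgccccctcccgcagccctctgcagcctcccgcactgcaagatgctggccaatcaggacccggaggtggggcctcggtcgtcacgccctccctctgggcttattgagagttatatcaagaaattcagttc
Pcdh10: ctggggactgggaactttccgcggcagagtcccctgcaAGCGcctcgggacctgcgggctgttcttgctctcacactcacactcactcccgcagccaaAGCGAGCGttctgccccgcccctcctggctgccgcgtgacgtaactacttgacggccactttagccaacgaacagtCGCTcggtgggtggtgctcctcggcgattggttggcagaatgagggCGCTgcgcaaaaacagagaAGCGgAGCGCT
CGCT was found 5 times upstream of Pcdh8, 2 times upstream of Pcdh9 and 8 times upstream of Pcdh10, and at least once in each of the 10 protocadherin entries. It is a common string, since 55.7% of 32851 mouse promoters of the same length hold it. CCCTC, the core of the CTCF motif, occurred on either strand in 8 of the 10 entries and in 60.5% of all promoters. These matches describe letters only, and they were present upstream of Pcdh8 as well as of Pcdh9 and Pcdh10.

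The libraries held from 9144736 to 13367194 counts on genes, and 3 counts corresponded to 0.221 to 0.336 CPM (counts relative to the total of the library), a limit that covers counting error only. Values are given as raw counts or as CPM after TMM scaling, which corrects for library composition. Genes were tested when at least 3 libraries reached 10 CPM before TMM scaling, and 10520 genes did. Neuronal markers were abundant (Tubb3, Map2, Snap25 and 5 others summed to 6229 to 7956 CPM) and markers of glia were present as well. Of the markers of microglia, 4 of 6 had at most 3 counts in every library. In both libraries of culture 1 the Y-linked genes summed to 9.07 and 9.30 CPM, against 97.8 to 136 in the other 4 libraries, although all 6 are labelled SRY+. Xist, counted from the inactive X chromosome, was at 403 to 1444 CPM in all 6 libraries, those of cultures 3 and 4 included. The label thus did not settle the sex of the cells in any culture. The part of sex in the values of X-linked genes was not tested. Since whole cultures were sequenced, fewer cells of a type and less RNA per cell cannot be told apart.

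Counts were found for 68 of the 69 genes, and how much of each gene could be counted differed between the clusters. Because the constant exons are shared, the exon sequence that no other gene of the table overlapped made up a median of 46.4% of an alpha gene and 54.8% of a gamma gene, but 100% of a beta or a non-clustered gene. A read in a constant exon cannot be assigned to a single gene, so alpha and gamma counts stand for the variable exons. How such reads, and the strand of reads, were treated in the counting is not given in the sources used here. Pcdhga10 had 0 counts in all 6 libraries. On its own strand 2613 bases of Pcdhga10 were free of other genes, but 0 bases were free on either strand, because the antisense gene Gm26672, with 6 to 20 counts, overlaps it. Pcdha4 had 404 free bases and 0 to 2 counts. The readthrough genes Gm42416, Gm37013 and Gm37388, which span several cluster genes, had 0 counts in every library.

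The release gives the symbol Pcdha11 to 2 identifiers. ENSMUSG00000102206.1 had 1 to 2 counts per library, and ENSMUSG00000007440.10, which starts upstream of it, had 36 to 82. They are kept apart here. The other members with a mean below 1 CPM were Pcdhb1, with 1 to 5 counts per library, and Pcdh12, an endothelial protocadherin, with 0 to 3. Endothelial markers were near 0 too, at 2.29 to 2.89 CPM in sum with vehicle and 1.57 to 1.84 with 10HDA, with Cldn5, Cdh5 and Tek at no more than 3 counts in any library.

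Per kilobase of exon free of other genes, a C-type gene stood at the top of the alpha and of the gamma cluster. In the alpha cluster Pcdhac2 had 15.0 ± 3.65 CPM per kb in vehicle and 13.1 ± 1.25 in 10HDA libraries (SD, n = 3 each), above every other alpha gene in either group. Its C-type neighbour Pcdhac1 was among the lowest, with 0.415 ± 0.229 and 0.461 ± 0.0432 CPM per kb. In the gamma cluster Pcdhgc3 led with 29.5 ± 6.06 and 27.2 ± 3.96 CPM per kb, followed by the gamma A gene Pcdhga11 with 22.0 ± 3.58 and 18.1 ± 0.991. Pcdhga11 had 1256 bases free on either strand but 2637 on its own strand, and Pcdhgc3 had 1821 and 3380. The place of Pcdhga11 and the size of the Pcdhgc3 lead thus depend on how read strand was treated in the counting. Pcdhgc5 had the lowest level of the counted gamma genes, with 1.69 ± 0.375 and 1.19 ± 0.186 CPM per kb. The beta genes lay closer together. Averaged over the 6 libraries, those with at least 1 CPM ran from 1.06 CPM per kb for Pcdhb13 to 5.69 for Pcdhb9.

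**Figure D1:**
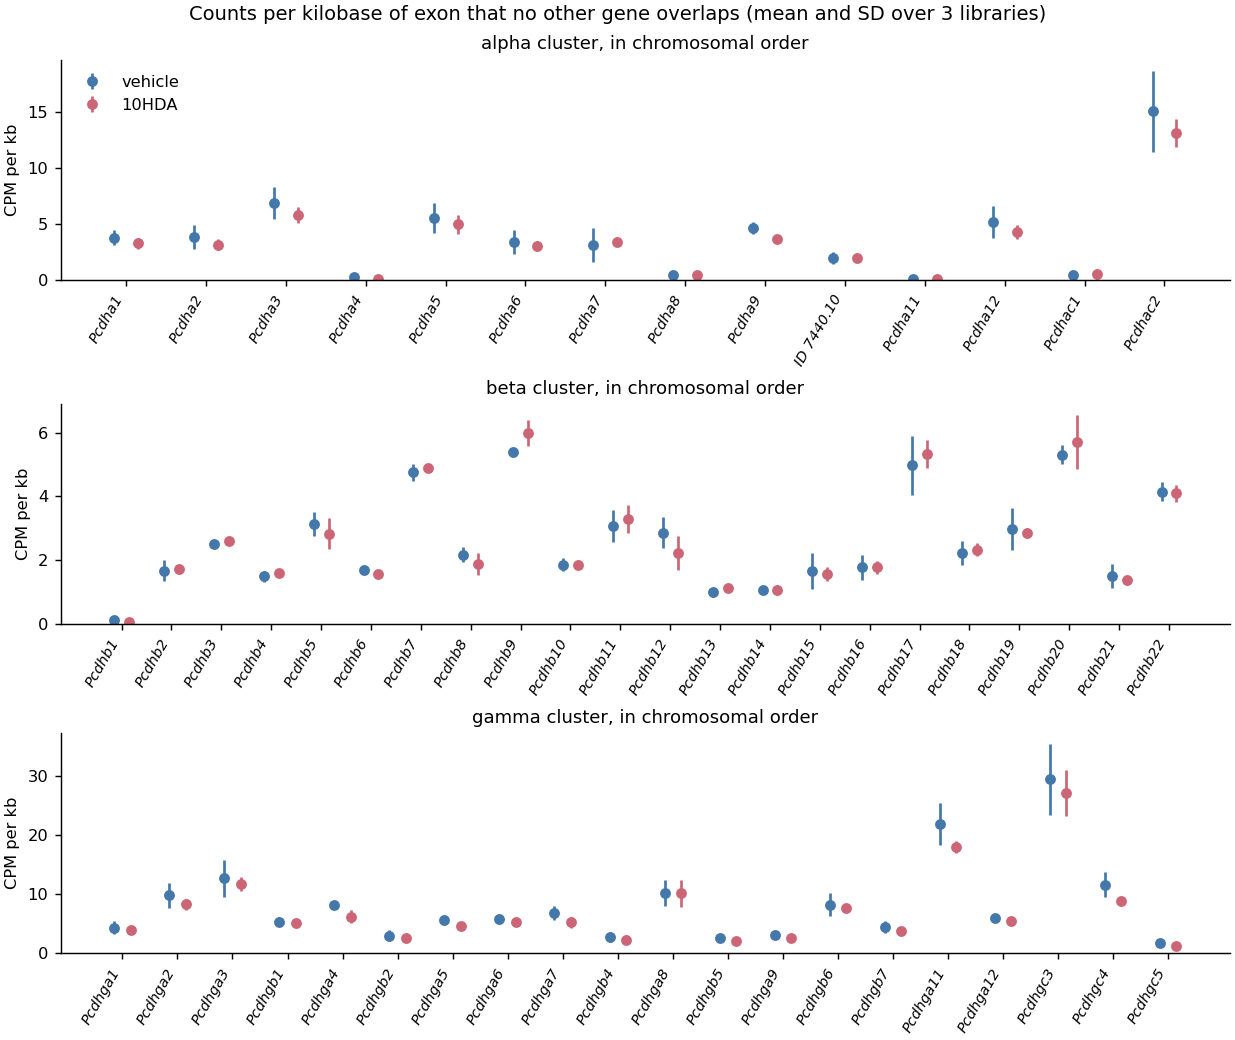
Levels of the cluster genes in chromosomal order, as CPM per kilobase of exon that no other gene overlaps on either strand, with points for the mean and bars for the SD over 3 libraries of each treatment. Pcdhac2 stands above the other alpha genes and Pcdhgc3 and Pcdhga11 above the other gamma genes in both treatments. The place of Pcdhga11 and the size of the Pcdhgc3 lead depend on this choice of length. A label beginning with ID stands for ENSMUSG00000007440.10, and Pcdhga10, which had 0 counts, is not drawn.

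Within each cluster the order of the genes was alike in all libraries. Across genes, the levels of any pair of libraries correlated at 0.95 to 0.99 for 12 alpha genes, 0.92 to 0.98 for 21 beta genes and 0.94 to 0.99 for 20 gamma genes (Pearson's r, as a description over genes of shared libraries). Position along the cluster and level showed no clear order, with Spearman's rho of -0.077 for alpha, 0.11 for beta and 0.035 for gamma genes.

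The comparison of 10HDA with vehicle asked which protocadherin genes respond to the fatty acid. A total of 38 genes passed the level of 10 CPM, namely 3 alpha, 9 beta, 15 gamma and 11 non-clustered genes, and 32 of them did so in all 6 libraries. Without a term for culture, 0 of the 38 passed an adjusted p of 0.1 in edgeR's quasi-likelihood test, where 0.627% of all genes tested did. At an unadjusted p under 0.05 there were 7 of 38, against 10.1% of all genes, and DESeq2 called 2 of the 38 (Pcdh9 and Pcdh11x), where it called 1.62% of all genes, and limma-voom 0. With culture as a block, which compares the libraries within a culture, 7 of the 38 passed, where 8.98% of all genes did. Of these 7, Pcdh8 and Pcdh11x rose (2 of 38, where 3.91% of all genes rose), and Pcdh9, Pcdh10, Pcdh15, Pcdhga7 and Pcdhgc4 fell (5 of 38, where 5.08% of all genes fell). They comprised 5 of 11 non-clustered, 2 of 15 gamma, 0 of 9 beta and 0 of 3 alpha genes. The tested clustered genes averaged 10.5 (Pcdhb5) to 51.6 CPM (Pcdhgc3) over the 6 libraries, the non-clustered ones 12.1 (Pcdh20) to 183 CPM (Pcdh1). Fewer counts give a test less power, so the numbers of calls do not compare the classes. With the block, the p-values rest on how the difference between treatments varied across these 3 cultures. Without it, they rest on the spread between libraries of the same treatment. Whether each culture came from separate animals is not stated.

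**Figure D2:**
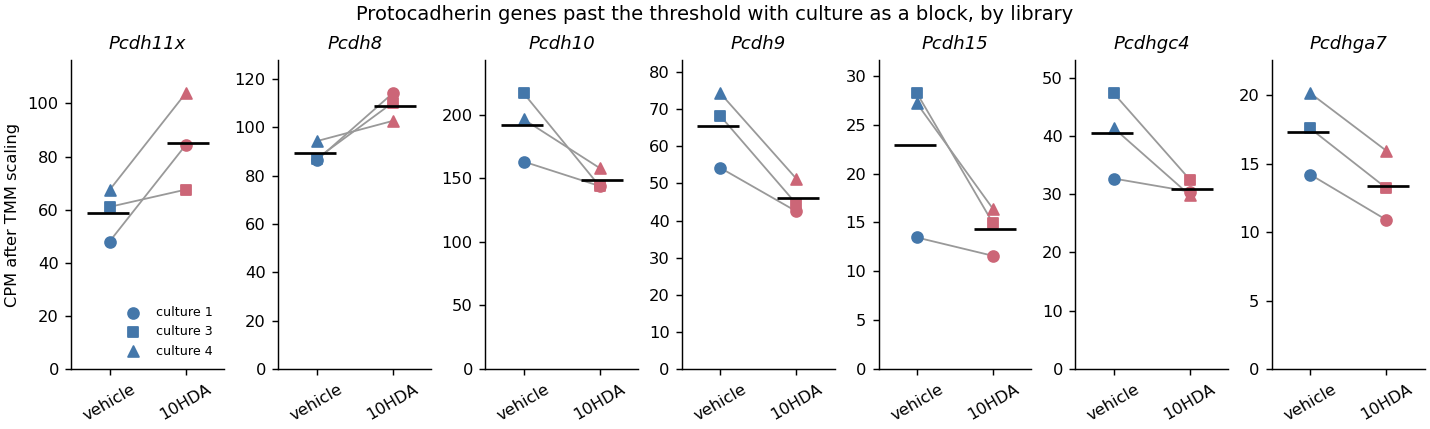
CPM after TMM scaling of the 7 protocadherin genes past an adjusted p of 0.1 with culture as a block, by library. Symbols mark cultures, grey lines join the libraries of a culture and black bars are means of 3 libraries. Pcdh11x and Pcdh8 are higher and the other 5 genes lower with 10HDA in all 3 cultures, and vertical scales differ between genes.

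Among the delta-1 genes, Pcdh9 and Pcdh11x moved in opposite directions. Pcdh9 (chr14:93013410-93890679, minus strand), a large gene expressed in cortical neurons, had 592, 882 and 875 counts with vehicle and 484, 603 and 457 with 10HDA in cultures 1, 3 and 4. In CPM this was 54.2, 68.2 and 74.3 against 42.5, 44.5 and 51.2. All 3 10HDA libraries lay below all 3 vehicle libraries. The fold change on the log2 scale was -0.50 with the block (standard error 0.10, adjusted p = 0.0031, edgeR) and -0.51 without it (standard error 0.13, adjusted p = 0.20). Pcdh9 passed the threshold in all 10 fits with the block that were run, including those without culture 1, 3 or 4.

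Pcdh11x (chrX:120290259-120910619, plus strand) encodes an X-linked delta-1 protocadherin of the brain. It had 524, 789 and 793 counts with vehicle and 961, 916 and 926 with 10HDA, although the 10HDA library of culture 4 was the smallest of the 6. Scaled, these were 48.0, 61.0 and 67.4 CPM against 84.3, 67.5 and 104 CPM. The groups barely separated, since the vehicle library of culture 4 and the 10HDA library of culture 3 were level. The log2 ratio was 0.81 in culture 1, 0.15 in culture 3 and 0.62 in culture 4. The fitted log2 fold change was 0.52 with the block (standard error 0.11, adjusted p = 0.0053, edgeR) and 0.53 without it (standard error 0.17, adjusted p = 0.31), and when culture 4 was left out of the block fit the adjusted p was 0.13. Xist, counted from the inactive X chromosome, was 1032, 430 and 843 CPM with vehicle and 1444, 403 and 646 with 10HDA, so that treatment went with higher Xist in culture 1 and lower Xist in cultures 3 and 4, while Pcdh11x was higher in all 3. Its part in the Pcdh11x values was not tested.

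The remaining delta-1 genes did not pass in either fit. Pcdh1, a widely expressed adhesion protein, had 190 ± 38.6 CPM in vehicle and 176 ± 9.26 in 10HDA libraries (mean ± SD, n = 3 each), and its log2 fold change was -0.11 ± 0.14 (standard error). Pcdh7, which is expressed in subsets of cortical and sensory neurons, had 88.4 ± 12.4 and 77.3 ± 16.7 CPM, a log2 fold change of -0.20 ± 0.16. Of Pcdh7, the 10HDA library of culture 3, at 62.5 CPM, was the lowest of the 6.

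Among the delta-2 genes Pcdh8 rose and Pcdh10 fell. Pcdh8 (chr14:79766775-79771312, minus strand), also called arcadlin, is induced by neuronal activity and promotes the internalization of N-cadherin at synapses. Its counts were 942, 1124 and 1109 with vehicle and 1300, 1494 and 915 with 10HDA, which scaled to 86.3, 86.9 and 94.2 CPM against 114, 110 and 103 CPM. Every 10HDA library lay above every vehicle library, by the least in culture 4. The log2 fold change was 0.29 in both fits, with an adjusted p of 0.076 with the block (standard error 0.096) and 0.34 without it (standard error 0.095, edgeR). Leaving out any 1 of the 3 cultures took Pcdh8 to the other side of the threshold, with an adjusted p of up to 0.24 in the 10 block fits. Beside it, 4 markers of intermediate progenitors summed to 44.1 to 61.3 CPM with vehicle and 68.4 to 100.2 with 10HDA, with the defining marker Eomes at 2.52 and 2.63 CPM on average. The sums rested mainly on Insm1 (27.3 and 45.6 CPM on average) and Btg2 (17.0 and 26.7). These 2 rose past the threshold with the block, where 3.91% of all genes rose, and Eomes and Neurog2 were below the filter. The part of these 4 markers, or of such cells, in the Pcdh8 values was not tested.

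Pcdh10 (chr3:45378398-45435623, plus strand) has roles in axon growth and in activity-dependent synapse elimination. The counts were 1783, 2807 and 2314 with vehicle and 1641, 1949 and 1410 with 10HDA. In CPM these were 163, 217 and 197 against 144, 144 and 158. All 10HDA libraries lay below all vehicle libraries, with the smallest step in culture 1. The log2 fold change was -0.37 with the block (standard error 0.097, adjusted p = 0.024, edgeR) and -0.37 without it (standard error 0.12, adjusted p = 0.30). The call was lost when culture 3 or culture 4 was left out of the block fit, where the adjusted p reached 0.23.

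The other delta-2 genes did not pass. Pcdh17, which acts in presynaptic assembly, had 117 ± 23.3 CPM with vehicle and 105 ± 8.47 with 10HDA, a log2 fold change of -0.16 ± 0.14 (standard error). Pcdh19, an X-linked gene mutated in an epilepsy of females, had 91.2 ± 17.2 and 78.3 ± 4.28 CPM (-0.22 ± 0.13). Pcdh18 had 13.5 ± 2.47 and 12.3 ± 1.36 CPM (-0.14 ± 0.16). In all 3 genes the vehicle and 10HDA libraries overlapped, and culture 1 differed from the others in sign for Pcdh17 and Pcdh19, with log2 ratios of 0.13 and 0.063.

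Outside the delta groups, Pcdh15 fell and Pcdh20 did not pass. Pcdh15 (chr10:73099342-74649737, plus strand) forms the tip links of hair cells in the inner ear and in the brain is a marker of oligodendrocyte precursors. It had 147, 365 and 320 counts with vehicle and 132, 202 and 146 with 10HDA. Scaled, these were 13.5, 28.2 and 27.2 CPM against 11.6, 14.9 and 16.4 CPM. The vehicle library of culture 1 was as low as the 10HDA libraries, so the groups overlapped, and within each culture the 10HDA library was lower. The log2 fold change was -0.65 with the block (standard error 0.14, adjusted p = 0.0039, edgeR) and -0.69 without it (standard error 0.25, adjusted p = 0.39). The gene passed in all 10 block fits.

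Markers of the oligodendrocyte lineage, including its precursors, moved beside Pcdh15. The 7 marker genes summed to 336 to 418 CPM with vehicle and 253 to 362 with 10HDA. Of the 6 tested, 4 were lower, where 52.1% of all genes were below 0, and with the block 3 of them fell, where 5.08% of all genes did: Pdgfra, the growth factor receptor of the precursors, at -1.26 on the log2 scale (adjusted p = 1.45e-07), Sox10 with -1.53 (adjusted p = 1.16e-05) and Cspg4 with -0.92 (adjusted p = 8.95e-05, edgeR for all 3). Olig1 and Olig2 had log2 fold changes of 0.051 and 0.23 and did not pass. The part of these cells in the Pcdh15 values was not tested. Pcdh20 was at 11.5 ± 0.705 CPM in vehicle and 12.6 ± 1.42 in 10HDA libraries (SD, n = 3 each), and its log2 fold change was 0.12 ± 0.14 (standard error).

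In the gamma cluster, 15 of 15 tested genes had a log2 fold change below 0, as did 52.1% of all genes tested. The median was -0.16, against -0.0095 over all genes tested. With library size alone as the scaling, Pcdhgb1 and Pcdhga8 turned to above 0, and with upper quartile scaling Pcdhga8 did. The direction was not alike in the cultures: the median log2 ratio was 0.034 in culture 1, -0.35 in culture 3 and -0.26 in culture 4, and 7 of the 15 genes were lower in all 3 cultures, where 21% of all genes were. The genes lie side by side, were counted in the same libraries and are not independent of each other.

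Pcdhgc4, a C-type gene needed for the survival of neurons, had the clearest difference in the cluster. It had 357, 612 and 487 counts with vehicle and 347, 441 and 266 with 10HDA, or 32.7, 47.3 and 41.4 CPM against 30.4, 32.5 and 29.8. The groups were apart by a hair, since the vehicle library of culture 1 and the 10HDA library of culture 3 nearly met. The log2 fold change was -0.38 with the block (standard error 0.11, adjusted p = 0.047, edgeR) and -0.39 without it (standard error 0.14, adjusted p = 0.40). It did not pass in the block fit when culture 3 or 4 was left out, when library size alone was the scaling or when DESeq2 was the test.

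Pcdhga7 had 155, 227 and 237 counts with vehicle and 124, 179 and 142 with 10HDA, or 14.2, 17.6 and 20.1 CPM against 10.9, 13.2 and 15.9. The groups overlapped, but the step within each culture was of like size, with log2 ratios of -0.37, -0.40 and -0.33. The fitted log2 fold change was -0.38 with the block (standard error 0.13, adjusted p = 0.093, edgeR) and -0.38 without it (standard error 0.18, adjusted p = 0.50). Only 2 of the 10 block fits called it, that with TMM scaling and that with limma-voom. Pcdhga4 came close, with 12.4, 12.5 and 13.6 CPM with vehicle against 7.98, 9.66 and 11.4 with 10HDA and an adjusted p of 0.1025 with the block (log2 fold change -0.41, edgeR). For Pcdhga4 the groups did not overlap. It passed the filter through the vehicle group, with 3 vehicle libraries and 1 10HDA library at 10 CPM before TMM scaling.

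The other tested gamma genes did not pass in either fit. Log2 fold changes were -0.31 for Pcdhga5, -0.29 for Pcdhga11, -0.25 for Pcdhga2, -0.25 for Pcdhgb5, -0.16 for Pcdhga1, -0.14 for Pcdhga12, -0.12 for Pcdhga3, -0.12 for Pcdhga6, -0.12 for Pcdhgc3, -0.11 for Pcdhgb6, -0.072 for Pcdhgb1 and -0.018 for Pcdhga8, with standard errors of 0.13 to 0.19 for the tested gamma genes. By kind, the median was -0.21 for 10 gamma A genes, -0.11 for 3 gamma B genes and -0.25 for 2 C-type genes. Summed over the cluster, gamma counts came to 389 ± 66.6 CPM in vehicle and 337 ± 29.7 in 10HDA libraries (SD, n = 3 each), and the ranges overlapped.

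Of the alpha cluster 3 genes were tested and none passed, the smallest unadjusted p being 0.18 (edgeR). Pcdhac2 had 32.8, 50.4 and 53.2 CPM with vehicle and 35.7, 39.7 and 43.3 with 10HDA, a log2 fold change of -0.20 (standard error 0.17). Pcdha3 had a log2 fold change of -0.25 (standard error 0.17) and Pcdha5 one of -0.17 (standard error 0.20). The alpha median was 0.12 in culture 1, -0.34 in culture 3 and -0.29 in culture 4. Within the cluster the share of Pcdhac2 hardly moved, at 33.4% ± 1.62 of alpha counts in vehicle and 33.3% ± 1.49 in 10HDA libraries (SD, n = 3 each).

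The 9 tested beta genes lay around 0, with a median log2 fold change of 0.061 and values from -0.15 to 0.15. None passed, and the smallest unadjusted p was 0.24 (edgeR). Pcdhb9 had 16.3, 16.7 and 16.4 CPM with vehicle and 19.7, 17.4 and 17.8 with 10HDA, groups that did not overlap, and the log2 fold change was 0.15 (standard error 0.12). The values above 0 were 0.11 for Pcdhb20, 0.10 for Pcdhb11, 0.099 for Pcdhb17, 0.061 for Pcdhb18 and 0.041 for Pcdhb7. Those below 0 were -0.15 for Pcdhb5, -0.070 for Pcdhb19 and -0.015 for Pcdhb22, and the last 2 turned to above 0 with library size alone. Standard errors of the tested beta genes were 0.12 to 0.17. The summed beta level was 234 ± 17.6 CPM with vehicle and 236 ± 1.4 with 10HDA.

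**Figure D3:**
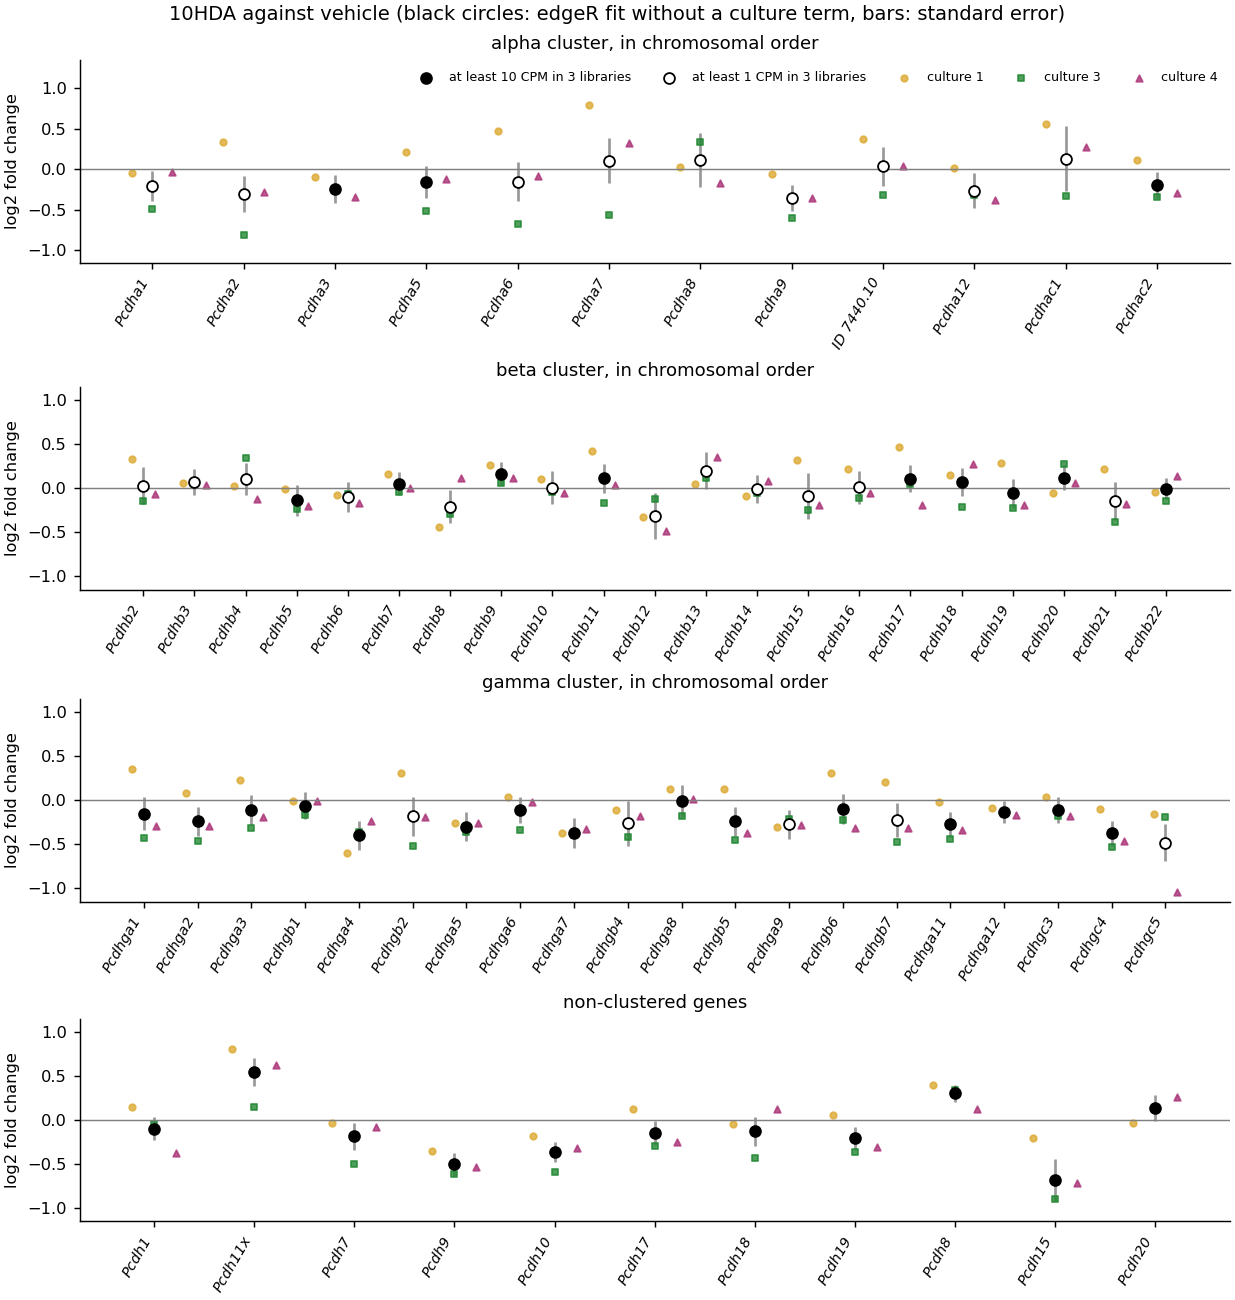
Log2 fold change of 10HDA against vehicle for the 64 genes with at least 1 CPM in 3 libraries, from the edgeR fit on that filter without a culture term (circles, bars are standard errors), with the log2 ratio within each culture as small symbols. Filled circles are the 38 genes that also reached 10 CPM. Gamma genes lie at or below 0, beta genes around it, and culture 1 (yellow) often lies above cultures 3 and 4.

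Over all 38 tested genes, 7 had groups that did not overlap, namely Pcdh8, Pcdh11x and Pcdhb9 upward and Pcdh9, Pcdh10, Pcdhga4 and Pcdhgc4 downward, where 13.4% of all genes tested did not overlap, 5.96% upward and 7.44% downward. For Pcdha5, Pcdhb18 and Pcdhga4 only 1 group reached 10 CPM (before TMM scaling) in all 3 libraries. This was the 10HDA group for Pcdha5 and Pcdhb18, with 2 and 1 vehicle libraries at that level. For Pcdhga4 it was the vehicle group, with 1 10HDA library at that level. Of all tested members, 29 had a log2 fold change below 0 and 9 above it, with a median of -0.14.

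With the filter at 1 CPM, 26 more genes could be fitted, and none of the 64 passed without the block (0.509% of all genes did), while 9 had an unadjusted p under 0.05, against 10.4% of all genes. With the block and this filter the genes past the threshold were the 7 above without Pcdhga7, which is 6 of 64 against 7.5% of all genes. The 9 added alpha genes, Pcdha1, Pcdha2, Pcdha6, Pcdha7, Pcdha8, Pcdha9, Pcdha12, Pcdhac1 and ENSMUSG00000007440.10, had log2 fold changes of -0.35 to 0.13. The 12 added beta genes, Pcdhb2, Pcdhb3, Pcdhb4, Pcdhb6, Pcdhb8, Pcdhb10, Pcdhb12, Pcdhb13, Pcdhb14, Pcdhb15, Pcdhb16 and Pcdhb21, had -0.31 to 0.20. The 5 added gamma genes, Pcdhgb2, Pcdhgb4, Pcdhga9, Pcdhgb7 and Pcdhgc5, had -0.48 to -0.18. In this fit 20 of 20 gamma genes were below 0.

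Among these low genes Pcdha9 and Pcdhgc5 had groups apart in the lower direction, and Pcdhb3 in the higher one. The share of all genes apart was computed at the filter of 10 CPM only, where it was 13.4%. Pcdhgc5, a C-type gene expressed late in neuronal maturation, had 73, 89 and 115 counts with vehicle and 68, 81 and 40 with 10HDA. The difference rested mainly on culture 4, where the log2 ratio was -1.04, against -0.15 and -0.19 in cultures 1 and 3. Pcdha9 had 108, 164 and 138 counts with vehicle and 108, 111 and 81 with 10HDA, with log2 ratios of -0.059, -0.60 and -0.35. Pcdhb3 had 9.71, 9.20 and 9.51 CPM with vehicle and 10.2, 9.73 and 9.76 with 10HDA, so its groups were barely apart. None of these genes passed, with adjusted p-values of 0.45 for Pcdhgc5, 0.47 for Pcdha9 and 0.87 for Pcdhb3 (edgeR, without the block).

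The split of counts between clusters is free of library scaling, since each library is compared with itself. The clustered genes together had 6580 to 10511 counts per library. Gamma genes took 50%, 50.5% and 53.0% of them with vehicle and 47.6%, 48.1% and 50.3% with 10HDA in cultures 1, 3 and 4. The gamma share was thus lower in 3 of 3 cultures, with differences of -2.41, -2.41 and -2.75 percentage points. Beta genes took 34.0%, 30.3% and 28.9% with vehicle and 35.5%, 35.0% and 32.2% with 10HDA, higher in 3 of 3 cultures by 1.45, 4.65 and 3.35 points. The shares of a library make up a whole, so the gamma and beta shifts are not independent of each other. Summed beta CPM had log2 ratios of 0.14, -0.062 and -0.017 in cultures 1, 3 and 4, and summed gamma CPM 0.0068, -0.34 and -0.25. The alpha share was 17.8% ± 1.61 in vehicle and 17.1% ± 0.316 in 10HDA libraries (SD, n = 3 each), without a common direction. The cultures differed from each other by as much as the treatments did, so the ranges of the groups overlapped for all 3 shares. With 3 libraries against 3 an unpaired exact permutation test cannot give a p below 0.1. For a paired one on 3 cultures the limit is higher still, and none is given.

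**Figure D4:**
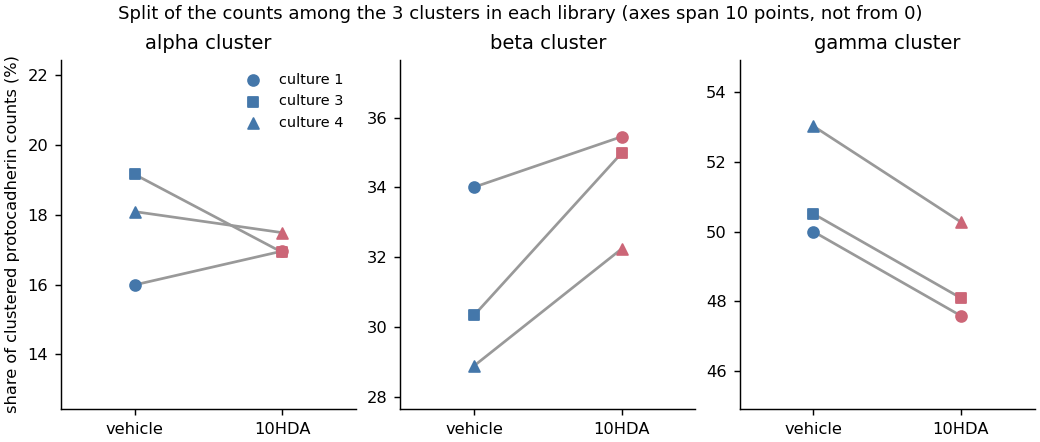
Share of the counts of all clustered protocadherin genes that fell to each cluster, in percent, by library. Lines join the vehicle and 10HDA libraries of a culture, and each axis spans 10 percentage points without starting at 0. The beta share is higher and the gamma share lower with 10HDA in 3 of 3 cultures, while the alpha share has no common direction. The shares of a library make up a whole and are not independent of each other.

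Within the gamma cluster the C-type genes did not shift together. Pcdhgc4 took 10.4%, 11.5% and 9.36% of gamma counts with vehicle and 9.65%, 10.0% and 8.04% with 10HDA, lower in 3 of 3 cultures. Pcdhgc3, which has roles in dendrite growth, took 14.0%, 12.5% and 14.9% with vehicle and 14.3%, 14.0% and 15.6% with 10HDA, higher in 3 of 3 cultures. For both genes the ranges of the groups overlapped.

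The median log2 fold change of the non-clustered genes was -0.16, 8 of 11 tested being below 0, which is the median of the gamma genes as well. Their values were wider, from -0.69 for Pcdh15 to 0.53 for Pcdh11x, where the clustered genes ran from -0.41 to 0.15. Median ratios by culture were -0.032, -0.36 and -0.25. Summed, the non-clustered genes were at 940 ± 141 CPM in vehicle and 865 ± 49.7 in 10HDA libraries (SD, n = 3 each).

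Cell type markers moved between the groups as well. Neuronal markers summed to 7436 to 7956 CPM with vehicle and 6229 to 7145 with 10HDA, with 7 of 8 lower, where 52.1% of all genes were below 0. Astrocyte markers summed to 1139 to 1412 and 854 to 1079 CPM, with 7 of 7 tested lower, of which Gfap, Aldh1l1 and Aldoc passed without the block, where 0.627% of all genes did. Sums of the markers of excitatory neurons (924 to 1157 and 873 to 1065 CPM), interneurons (387 to 486 and 345 to 448), radial glia (783 to 951 and 721 to 806) and dividing cells (163 to 204 and 160 to 219) overlapped between the groups. With the block, 3 of 8 neuronal markers (Rbfox3, Snap25 and Syt1) and 4 of 7 tested astrocyte markers fell, where 5.08% of all genes did. So did 1 of 6 excitatory (Slc17a7), 2 of 6 interneuron (Dlx1 and Dlx2) and 1 of 6 radial glia markers (Fabp7). Of the radial glia markers Vim rose, where 3.91% of all genes rose, and no marker of dividing cells passed. Markers of meningeal fibroblasts and pericytes were low, at 26.6 to 27.7 CPM with vehicle and 13.2 to 16.0 with 10HDA. The sum was mostly Dcn (9.18 and 4.49 CPM on average) and Pdgfrb (15.7 and 7.38). The others were low, and Col1a2 and Rgs5 were slightly higher with 10HDA. Pdgfrb, the only 1 of the 6 tested, passed without the block (log2 fold change -1.07, adjusted p = 0.043, edgeR). The part of cell composition in the protocadherin values was not tested.

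Genes related to the protocadherins were read from the same fit. Of 44 other members of the cadherin superfamily, 19 were tested, with a median log2 fold change of -0.21 and 15 below 0, where 52.1% of all genes were below 0. None passed without the block. With it, Cdh24 rose (0.44, adjusted p = 0.032), and Cdh13 (-0.49, adjusted p = 0.0012), Cdh11 (-0.47, adjusted p = 0.0055), Cdh4 (-0.35, adjusted p = 0.029) and Fat1 (-0.29, adjusted p = 0.084, edgeR for all) fell, which is 1 of 19 higher and 4 of 19 lower, where 3.91% and 5.08% of all genes passed. Cdh13 is a membrane-anchored cadherin without a cytoplasmic domain, and Fat1 is a giant cadherin of epithelia and glia.

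Of 18 genes for the chromatin and promoter choice of the clusters, such as Ctcf, the cohesin subunits, Smchd1 and the DNA methyltransferases, 17 were tested. Their median log2 fold change was -0.048, and none passed in either fit. The smallest p belonged to Rest, a repressor of neuronal genes (0.29, adjusted p = 0.50), and to the cohesin subunit Smc1a (-0.26, adjusted p = 0.52, edgeR without the block).

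Of 18 genes for signalling and processing downstream of protocadherins, all were tested, with a median of -0.010. None passed without the block. With it, 2 fell, Ptk2b (-0.47, adjusted p = 0.017), a kinase that gamma and alpha protocadherins inhibit, and Cyfip2 (-0.28, adjusted p = 0.075, edgeR), a subunit of the WAVE actin regulator that delta-2 protocadherins recruit, where 5.08% of all genes fell. Wasf1, the WAVE protein itself, had the next smallest p without the block (log2 fold change -0.25, adjusted p = 0.45).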

How the data were processed

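RNA-seq was carried out on 6 libraries, 3 with vehicle and 3 with 10HDA. As stated in the methods of the study and its processing notes, the authors took untrimmed 50 bp single-end reads, aligned them to mm10 with Subjunc (Subread 1.4.4) and summarized them per gene with featureCounts on Gencode models. The library kit was strand-specific. The values deposited are raw counts per gene, neither normalized nor filtered. Library depth was 9144736 to 13367194 counts. Further sample columns numbered 0.

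Symbols, biotypes and coordinates were taken from GENCODE M21, which matched 98.0% of the identifiers. Exon bases free of other genes were counted against the genes in the table, and promoter windows came from RefSeq. Genes that reached 10 CPM in 3 or more libraries were kept (10520), scaled by TMM and tested in R 4.3.3 with edgeR 4.0.16 (glmQLFit and glmQLFTest, without a culture term), with Benjamini-Hochberg adjustment over all genes tested and a threshold of 0.1. The methods of the study give edgeR, TMM, the filter and the rate of 0.1, and name neither the test nor a culture term. Each standard error was derived from the fold change and its F statistic. Ratios within a culture are of CPM plus 0.5. CPM use the counts on tested genes times the TMM factor as library size. The script was tested on simulated counts.

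The labels place a vehicle and a 10HDA library in every culture, so the culture numbers pair the libraries. The deviations of libraries of the same culture from their group means correlated at 0.37, 0.23 and 0.62 across genes for cultures 1, 3 and 4, against -0.45 to 0.19 for different cultures. Culture as a block was therefore run beside the main fit. Other alternatives were DESeq2 size factors, upper quartile scaling, library size alone, DESeq2 1.42.0, limma-voom (limma 3.58.1), other filters, a threshold of 0.05 and each library or culture left out. The block with other scalings, tests and left-out cultures was added after the data were seen.

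The genes, the lists of related genes and the markers were chosen with earlier results of these data known. Named are all protocadherin genes that passed the filter, those below it with a mean of at least 1 CPM, and from each related list the genes past the threshold and the 2 with the smallest p. The remaining protocadherin genes, and members whose groups did not overlap, were named after their values were seen.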

Additional observations from a re-analysis of the deposited data

How the results depend on the processing

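The class medians kept their direction and moved by less than the spread between cultures under every alternative run, except the beta median, which was -0.0074 when culture 1 lacked its vehicle library. Of the 38 genes, the number past the threshold was 0 in the main fit, 2 with DESeq2, 4 without a filter, 7 with culture as replicate block, 6 with the block and 1 CPM, DESeq2 size factors or upper quartile scaling, 5 with the block and library size alone, 4 with the block and DESeq2, 7 with the block and limma-voom, and 5 with the block at a threshold of 0.05. For all genes, 66 in the main fit became 43 at a threshold of 0.05, 170 with DESeq2, 636 without a filter, 945 with the replicate block (411 higher, 534 lower), and with the block 1148 at 1 CPM (600 higher), 943 with DESeq2 size factors (456 higher), 944 with upper quartile scaling (532 higher), 1265 with library size alone (949 higher), 389 with DESeq2, 977 with limma-voom and 604 at a threshold of 0.05. With libraries or cultures left out, the protocadherins past the threshold ran from 0 to 5 and all genes from 0 to 1150. Without the vehicle library of culture 1, Pcdh9, Pcdh10 and Pcdh15 passed without the block, and without the 10HDA library of culture 4 Pcdh9 did. Without the 10HDA library of culture 1, or without culture 3, all genes past the threshold were 0, with 469 and 725 at an unadjusted p under 0.05 (edgeR).

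Fold changes near 0 turned sign. With upper quartile scaling Pcdhb22 was 0.014 and Pcdhga8 0.011 (with the block 0.014 and 0.016). With library size alone Pcdhb19 was 0.0097, Pcdhb22 0.060, Pcdhgb1 0.0055 and Pcdhga8 0.060 (with the block 0.025, 0.060, 0.0079 and 0.064). With the block and DESeq2, Pcdhga8 was 0.00088. With libraries or cultures left out the log2 fold change ran from -0.23 to 0.062 for Pcdh1, -0.26 to 0.043 for Pcdh18, -0.34 to 0.046 for Pcdha5, -0.0012 to 0.088 for Pcdhb7, -0.060 to 0.27 for Pcdhb11, -0.050 to 0.26 for Pcdhb17, -0.043 to 0.23 for Pcdhb18, -0.22 to 0.062 for Pcdhb19, -0.026 to 0.20 for Pcdhb20, -0.088 to 0.068 for Pcdhb22, -0.37 to 0.059 for Pcdhga1, -0.29 to 0.025 for Pcdhga3, -0.20 to 0.017 for Pcdhga6, -0.21 to 0.18 for Pcdhga8, -0.15 to 0.057 for Pcdhgb1, -0.26 to 0.084 for Pcdhgb6 and -0.24 to 0.067 for Pcdhgc3. The median of the signalling genes was 0.066 with library size alone, where the median of all genes was 0.067, and that of the other cadherins was -0.098 without the vehicle library of culture 4. Of 1026 fold changes over all alternatives, 899 kept direction and side of the threshold, 61 passed it and 66 turned sign. The cause of these differences was not tested. Genes below 1 CPM could not be judged at this depth.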
